A study of Homo sapiens with 27 samples.

Results

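The genes of the proteasome were followed in RM82 cells, an established Ewing sarcoma line, whose RNA was sequenced as full-length cDNA on a nanopore instrument and counted per transcript by unique molecular identifiers. The 40 genes were chosen by name: the 14 subunits of the core particle, the 19 subunits of the regulatory particle, and 7 genes for assembly chaperones and other activators. All 40 were listed, out of 18776 genes listed in the 6 libraries. They held 327 transcripts, of which 154 are annotated as coding, 103 as retaining an intron, 37 as targets of nonsense-mediated decay and 33 as having no defined reading frame. The series holds 27 samples, and the comparison used 3 libraries labelled SGC-CLK-1 and 3 labelled DMSO, all from the same line, with no genotype difference between the groups in the labels. SGC-CLK-1, an inhibitor of the CLK kinases that phosphorylate splicing factors, was given for a day, and DMSO, its solvent, served as the negative control. The dose is not given in the sources used here, and the labels do not say whether the replicates were separate cultures. The study states in general terms that experiments were repeated independently; if these libraries were not, p-values measure only a technical spread between them.

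Libraries with the SGC-CLK-1 label held 666702, 362826 and 373004 counts, and those with the DMSO label held 416352, 523456 and 372876. No counted gene checks the labels directly, because the compound inhibits the CLK kinases without deleting them. FRG2 (transcript ENST00000645766) had 64, 44 and 60 counts under the SGC-CLK-1 label and 96, 88 and 95 under the DMSO label. The study draws the change of this transcript in the other direction, so the groups are called by their labels throughout and every direction below rests on them. Of the Ewing sarcoma markers, CCND1 had 181 to 301 counts per library, CD99 had 34 to 74, STEAP1 had 29 to 46 and ERG had 24 to 88, while NR0B1 had 1 to 6, PAPPA 0 to 6, LIPI 0 to 11 and PRKCB 5 to 13. NKX2-2 and FLI1 were not analysed here. CCND1, at -0.45 ± 0.20 on the log2 scale, and EWSR1, at 0.56 ± 0.24, had groups that did not overlap between the labels, but neither passed the edgeR test (adjusted p = 0.323 and 0.318). Defining genes of other cells were near zero, with CD14 at 0 or 1 count, JCHAIN at 0 or 1 and EPCAM at 0 to 4 counts per library. PTPRC, a marker of blood cells, had 3 to 12 counts, and KRT8, an epithelial keratin, had 7 to 36 with overlapping groups.

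The proteasome is the protease that degrades proteins marked with ubiquitin. Its core particle is a barrel of stacked rings: outer alpha rings that gate entry and inner beta rings that hold the active sites. The regulatory particle caps the barrel and has a base, with a ring of ATPases that unfold substrates, and a lid, with the enzyme that removes ubiquitin. Subunits are made in matched amounts, and in human cells the transcription factor NFE2L1 raises their genes together when proteasome activity falls.

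The structures that set apart the 5 transcripts of PSMD7 and PSMD4 described here are given first, on the hg38 genome, where both genes lie on the plus strand, with the sequences at the exon ends of PSMD4. PSMD7, a structural subunit of the lid that pairs with the ubiquitin-removing enzyme PSMD14, lies at chr16:74296814-74306288. Its coding transcript ENST00000219313 has 7 exons and 324 codons before the stop. The decay-annotated transcript ENST00000568717 has 8 exons, because it includes a cassette exon of 170 bases at chr16:74299576-74299745. That exon ends the reading frame after 43 codons.

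PSMD4, a ubiquitin receptor of the base, lies at chr1:151254709-151267479. Its transcript ENST00000437736 starts at another first exon of 159 bases (chr1:151259063-151259221), which lies 4254 bases downstream of the first exon of the full-length transcript ENST00000368884. The annotation leaves ENST00000437736 open at its end: it has 6 exons and stops at base 151265609, where ENST00000368884 has 10 exons. The full-length transcripts ENST00000368881 and ENST00000368884 differ by 9 bases at the end of exon 7, which are present in ENST00000368881 and are in capitals in the third line below (chr1:151266103-151266129). The other lines give the last 20 bases of each first exon and the intron bases after it, with the donor dinucleotide in capitals (chr1:151259202-151259229 and chr1:151254789-151254816).
PSMD4 alternative first exon: ctgaatactaccctagacagGTtgagta
PSMD4 full-length first exon: ttggaaagcactatggtgtgGTgaggag
PSMD4 exon 7 end: gggactgaagGTGAAAGAGgtggaatc

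At the gene level no proteasome gene passed the test between the labels, yet most had lower fitted values under the SGC-CLK-1 label. Counts were summed over each gene's transcripts and tested with edgeR's quasi-likelihood test, adjusted over all 6344 genes that passed the filter on low counts. 38 of the 40 genes were tested. PSMD3, a lid subunit with 2 to 10 counts per library, and PSME1, an activator subunit with 7 to 32, did not pass the filter. In this edgeR fit, 0 of the 38 had an adjusted p under 0.05, against 0.236% of all tested genes. DESeq2 called 1 of the 38, PSMD7, and 107 of all 6344 tested genes. At an unadjusted p under 0.05, 8 of the 38 (21.1%) were lower and 0 were higher under the SGC-CLK-1 label, against 6.97% and 6.89% of all tested genes. Of the 38, 31 had a negative log2 fold change, against 50.1% of all genes, and their median was -0.32 against -0.001 for all genes. The 3 libraries labelled SGC-CLK-1 lay wholly below the 3 labelled DMSO in 10 of the 38 genes and wholly above in 0, where 9.77% and 9.91% of all tested genes did so.

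**Figure D1:**
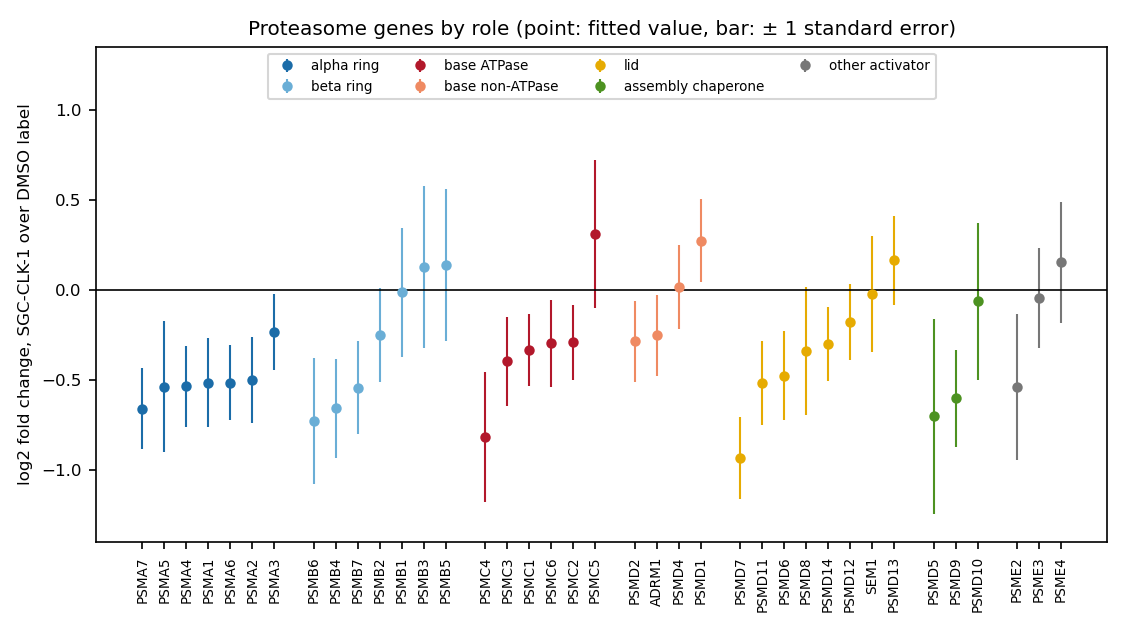
Fitted log2 fold changes of the 38 tested proteasome genes (vertical axis, libraries labelled SGC-CLK-1 over those labelled DMSO), grouped and coloured by role along the horizontal axis, with bars of 1 standard error. All 7 alpha ring genes lie below 0, PSMD7 is lowest at -0.94, and the 7 genes above 0 reach at most 0.31.

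Summed over all 40 genes, the level was 8594, 6875 and 7157 CPM under the SGC-CLK-1 label, where CPM is a count per library total scaled by the trimmed mean of M-values. It was 9646, 8613 and 11450 CPM under the DMSO label, so the groups did not overlap, by 8594 against 8613 CPM, and the ratio of the means was 0.762. Scaled by library total alone, the levels were 8757, 7094 and 7386 against 9679, 8474 and 10680, the groups overlapped and the ratio was 0.806. Library 3 of the DMSO label was the highest of the 6 and library 2 of the SGC-CLK-1 label the lowest. These are shares of the counted RNA, and in bulk libraries fewer cells of a kind and less RNA per cell cannot be told apart. Without DMSO replicate 3, the tested members lower at an unadjusted p went from 8 to 1 (2.56% of members, 4.90% of all genes), while the median stayed at -0.29 and 32 of 39 were negative. Without SGC-CLK-1 replicate 2 the number was 3 (7.69% of members, 4.83% of all genes), and without SGC-CLK-1 replicate 3 it was 5 (12.8% and 5.93%). It was 11 without SGC-CLK-1 replicate 1 (28.9% and 7.18%), 12 without DMSO replicate 2 (30.8% and 7.35%) and 6 without DMSO replicate 1 (15.8% and 5.85%).

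The length of the counted RNA varied between libraries, with labels that overlapped, and the fold changes of all genes varied with length. The median annotated length of a counted transcript was 2812, 2957 and 2935 bases under the SGC-CLK-1 label, and 2690, 2855 and 2644 bases under DMSO. DMSO replicate 3 had the largest share of counts on transcripts under 1500 bases, 24.6%, and DMSO replicate 2 the smallest, 19.9%. Over all tested genes, the median log2 fold change was -0.26 for the 535 genes of 1000 to 1500 bases and 0.07 for the 1886 genes of 3000 to 5000 bases. The median of the proteasome genes lay below that of all genes in each length class that held any of them. The 10 members of 1000 to 1500 bases had a median of -0.37, the 6 of 1500 to 2000 bases had -0.39 against -0.10 for all genes, and the 9 of 3000 to 5000 bases had -0.25. With a length-dependent scaling of each library, chosen after seeing the data, the median of the members was -0.34 against -0.03 for all genes, and 6 members were lower at an unadjusted p (15.8%, against 7.46% of all genes).

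**Figure D2:**
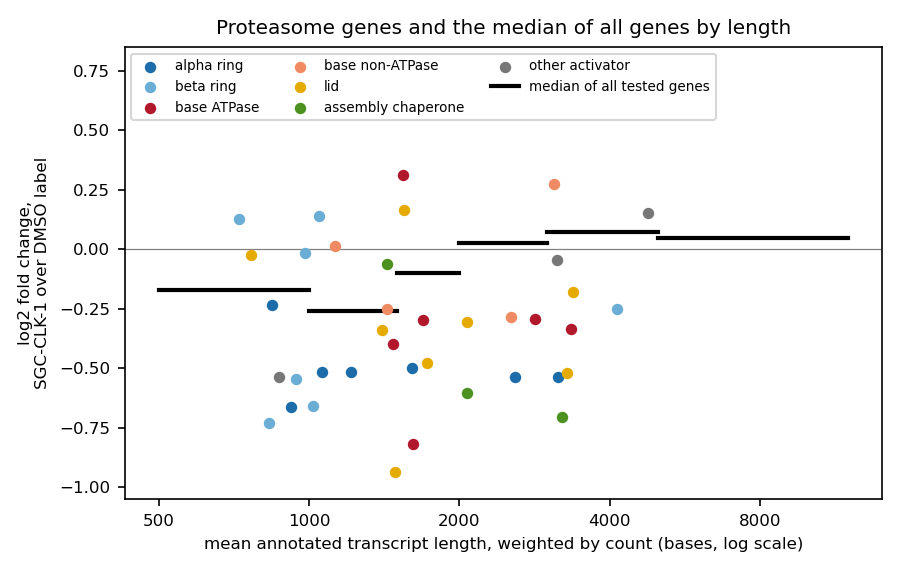
Log2 fold change of each tested proteasome gene (points, coloured by role) against its count-weighted mean transcript length in bases on a log axis, with black lines for the median of all tested genes in each length class. The black lines run from -0.17 for the shortest genes through -0.26 to 0.07, and most points lie below the line of their class.

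The alpha ring, which gates the core particle, had the most even values. All 7 genes had negative log2 fold changes, from -0.66 to -0.24 with a median of -0.52, and 3 of them were lower at an unadjusted p. PSMA7 had 462, 398 and 385 CPM under the SGC-CLK-1 label and 689, 460 and 836 under DMSO. Its lowest DMSO library lay just under its highest SGC-CLK-1 library, and the log2 fold change was -0.66 ± 0.23 (SE, n = 3 per label, edgeR adjusted p = 0.192). PSMA6 had 271, 208 and 260 CPM under the SGC-CLK-1 label against 314, 344 and 408. Its groups did not overlap, and the log2 fold change was -0.52 ± 0.21 (SE, n = 3 per label, edgeR adjusted p = 0.286). PSMA4 had groups that did not overlap either, with a log2 fold change of -0.54 ± 0.22. Over 15 alternative fits the value of PSMA4 lay between -0.70 and -0.25. PSMA1, PSMA2 and PSMA5 had values of -0.52, -0.50 and -0.54, and PSMA3, at -0.24, was nearest to 0. The alpha ring genes were negative in all 15 alternative fits, and their median lay between -0.66 and -0.41.

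In the beta ring, which holds the active sites, 5 of 7 genes had negative values, with a median of -0.25 and 1 gene lower at an unadjusted p. PSMB4, a structural beta subunit, had 681.6, 411.3 and 663 CPM under the SGC-CLK-1 label and 821, 608 and 1373 under DMSO. Its groups overlapped, and DMSO replicate 3 was far above the rest. The log2 fold change was -0.66 ± 0.28, and it was -0.29 in the highest of the alternative fits. The catalytic subunits had unequal values: PSMB6, with caspase-like activity, was at -0.73 ± 0.35 and PSMB7, with trypsin-like activity, at -0.55 ± 0.26, while PSMB5, the chymotrypsin-like subunit that proteasome inhibitors target, was at 0.14 ± 0.42. None of these passed the edgeR test, and the difference between them was not tested. PSMB5 had 125, 69.5 and 33.8 CPM under the SGC-CLK-1 label and 98.1, 71.8 and 43.1 under DMSO, a spread within each label that was wider than the difference of the label means.

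In the base of the regulatory particle, 5 of the 6 ATPases had negative values, with a median of -0.32. PSMC4 had the lowest, -0.82 ± 0.36, from 31, 20 and 9 counts under the SGC-CLK-1 label and 32, 31 and 29 under DMSO. PSMC1 and PSMC2 had non-overlapping groups with smaller values, -0.34 and -0.29. PSMC5 was the exception at 0.31 ± 0.41: it had 241, 107 and 75.3 CPM against 170, 118 and 60.3, so the groups overlapped widely. Its positive value rested on SGC-CLK-1 replicate 1, without which it was -0.38. The non-ATPase subunits of the base, which form its scaffold and bind ubiquitin, had the median nearest to 0 of the regulatory subunits, -0.12, and 2 of 4 negative. PSMD1, a scaffold subunit, had 375.4, 411.3 and 561 CPM against 280, 454 and 376, with a log2 fold change of 0.27 ± 0.23 (SE, n = 3 per label, edgeR adjusted p = 0.658). With a library left out, PSMD1 ran from 0.072 (without SGC-CLK-1 replicate 3) to 0.458 (without DMSO replicate 2). The ubiquitin receptors PSMD4 and ADRM1 were at 0.01 ± 0.23 and -0.25 ± 0.22.

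The lid held the member with the smallest p. PSMD7 had 303, 206 and 229 CPM under the SGC-CLK-1 label and 440, 392 and 600 under DMSO. Every library of the SGC-CLK-1 label lay below every library of the DMSO label. The log2 fold change was -0.94 ± 0.23 (SE, n = 3 per label, unadjusted p = 0.00104), and its edgeR adjusted p of 0.0874 did not pass. DESeq2 gave an adjusted p of 0.0162, and over 15 alternative fits the value lay between -1.14 and -0.75 with adjusted p between 0.0162 and 0.295. PSMD11, a lid scaffold subunit, was at -0.52 ± 0.23 and PSMD6 at -0.48 ± 0.25. PSMD14, the enzyme that removes ubiquitin and the partner of PSMD7, was at -0.30 ± 0.21. PSMD13, another lid subunit, had 178, 144 and 117 CPM against 132, 138 and 126, and its log2 fold change of 0.16 ± 0.25 turned to -0.03 without SGC-CLK-1 replicate 1. Of the 8 tested lid genes, 7 were negative and the median was -0.32.

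**Figure D3:**
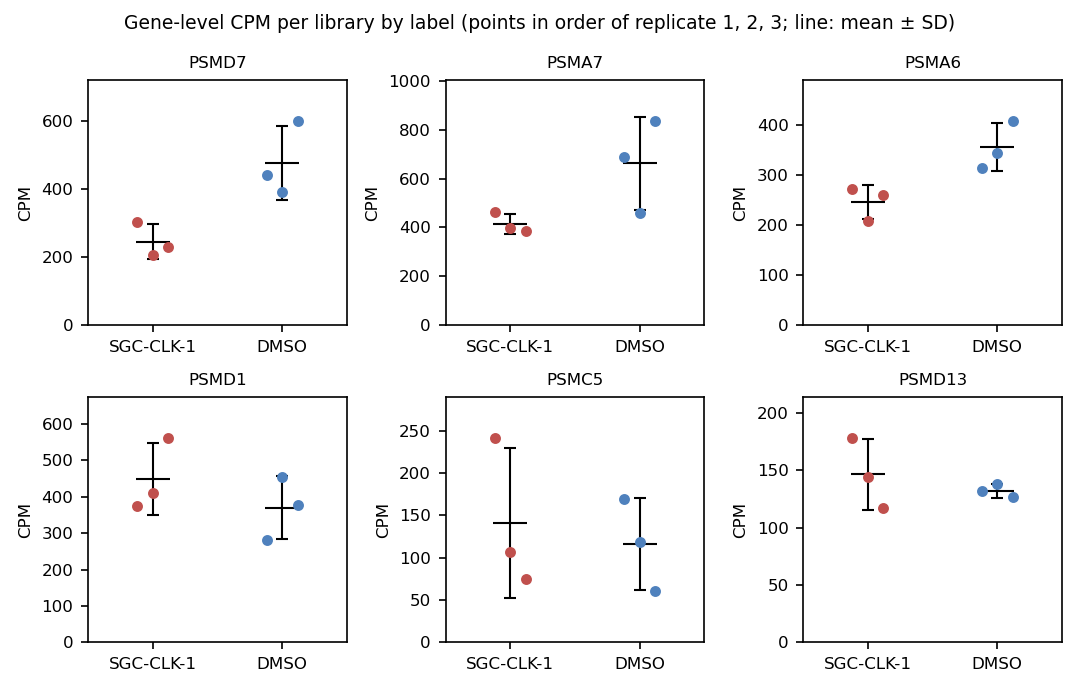
Gene-level CPM in each library for the 3 lower and the 3 higher proteasome genes with the smallest p, by label, with points in the order of replicates 1, 2 and 3 and a line for the mean ± SD. The groups are apart in PSMD7 (206 to 303 against 392 to 600 CPM) and PSMA6, nearly apart in PSMA7, and overlap in PSMD1, PSMC5 and PSMD13.

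Outside both particles, the assembly chaperones of the base, PSMD5, PSMD9 and PSMD10, were at -0.70 ± 0.54, -0.60 ± 0.27 and -0.06 ± 0.43, and their summed level of 163, 93.5 and 159 CPM under the SGC-CLK-1 label lay below 194, 204 and 210 under DMSO. The other activators had no common direction: PSME2 was at -0.54 ± 0.41, the nuclear activator PSME3 at -0.05 ± 0.28 and PSME4 at 0.15 ± 0.34.

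The core and the regulatory particle were compared by their medians and by summed levels. Among the 14 core genes the median was -0.52 on the log2 scale, with 12 negative and 4 lower at an unadjusted p. The 18 tested regulatory genes had a median of -0.30, with 14 negative and 3 lower. The difference of the medians, core minus regulatory, was -0.22. In single libraries, the core minus regulatory median log2 level had a pooled SD of 0.18 within labels. That SD is for 1 library and not for a difference between label means. Summed core levels were 3225, 2473 and 2964 CPM under the SGC-CLK-1 label and 4038, 3202 and 5315 under DMSO. Summed regulatory levels were 4895, 3918 and 3759 CPM against 5031, 4842 and 5645. Both pairs of groups overlapped, though in each only 1 library of each label crossed over. The ratio of core to regulatory CPM was 0.659, 0.631 and 0.789 under the SGC-CLK-1 label and 0.803, 0.661 and 0.942 under DMSO, which also overlapped. Without DMSO replicate 3 the difference of the medians was -0.05, and with the length-dependent scaling it was -0.11. Core genes were shorter, with a median length of 1032 bases against 1691 for regulatory genes. With this overlap and these changes, the libraries did not set the particles apart.

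**Figure D4:**
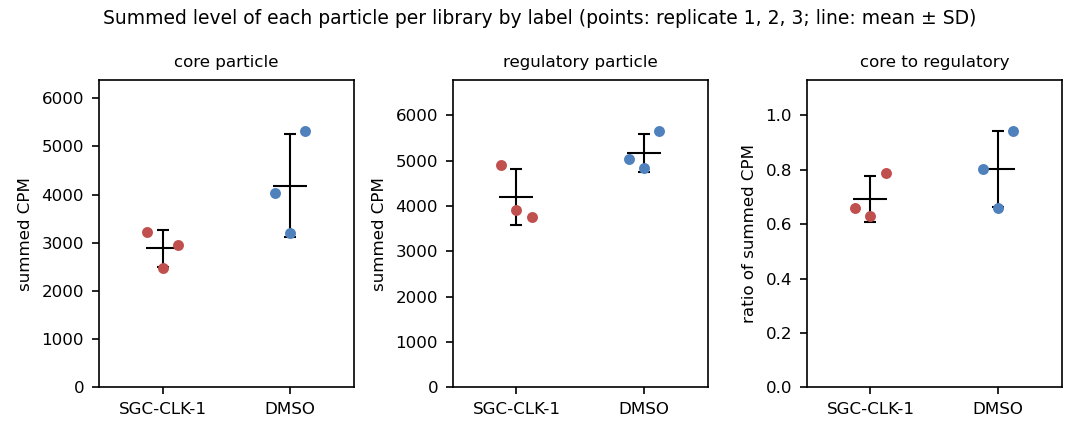
Summed CPM of the core and of the regulatory particle in each library, and their ratio, by label, with points for replicates 1, 2 and 3 and a line for the mean ± SD. In all 3 panels the groups overlap, and DMSO replicate 3 is the highest point (5315 and 5645 CPM, ratio 0.942).

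Levels between genes were compared per kilobase of annotated transcript, in CPM per kilobase over the 3 DMSO libraries. PSMB4 was highest at 997 ± 431 (SD, n = 3), followed by PSMA7 at 729 ± 209 and PSMA4 at 509 ± 179. These neighbours did not differ beyond their spread. PSMA6, PSMA3, PSMD11 and PSMD7 followed, between 333 and 362. The lowest were PSMD5 at 14.1 ± 0.27, PSMD3 at 17.0 ± 0.94 and PSMA5 at 20.2 ± 1.8. PSMD10 at 21.2 ± 4.8 and PSME4 at 21.9 ± 7.1 were close to these. PSMD5 had only 15, 24 and 9 counts in the DMSO libraries and PSMD3 had 10, 9 and 6. Their small SDs therefore understate the noise of counting, and in CPM not divided by length PSMD5 was at 36.1 ± 10.4. PSMB4 and PSMA7 were also the highest under the SGC-CLK-1 label, at 599 ± 158 and 464 ± 50.8. Identifiers count molecules rather than bases, and the order differed in CPM not divided by length: PSMD11 was highest at 966 ± 250 (SD, n = 3), followed by PSMB4 at 934 ± 395, PSMA4 at 803 ± 264 and PSMA7 at 662 ± 189, and PSMD3 was lowest at 19.6 ± 3.8. Reads that align to several isoforms were kept, which can add counts to genes with many similar transcripts. PSMB4 had 7 listed, PSMA7 6, PSMA4 17 and PSMD11 9, and the effect on the order was not tested.

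At the transcript level 91 of the 327 transcripts, from 36 genes, passed the filter, and 3 of them had an edgeR adjusted p under 0.05, all lower under the SGC-CLK-1 label. Over all 7840 tested transcripts 3.95% were called. At an unadjusted p, 15 of the 91 (16.5%), from 9 genes, were lower and 0 were higher, against 9.11% and 8.93% of all tested transcripts. Both called PSMD7 transcripts fell. The coding ENST00000219313 had 105, 45 and 48 counts under the SGC-CLK-1 label and 98, 110 and 103 under DMSO, which is 156, 121 and 127 CPM against 236, 215 and 283. Its log2 fold change was -0.79 ± 0.22 (SE, n = 3 per label, edgeR adjusted p = 0.0340). The decay-annotated ENST00000568717, which carries the cassette exon, had 127, 85.8 and 90.1 CPM against 188, 162 and 256, and its log2 fold change was -0.90 ± 0.24 (SE, n = 3 per label, edgeR adjusted p = 0.0292). In both, the groups did not overlap.

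The decay-annotated form of PSMD7 took 41.75, 41.56 and 38.64% of the gene's counts under the SGC-CLK-1 label. It took 42.39, 41.09 and 44.5% under DMSO, so the groups overlapped. A read that does not span the cassette exon can be counted on both, because secondary alignments were kept, so the 2 calls are not independent and the proportion of the forms is partly fixed. Both calls were lost without SGC-CLK-1 replicate 2 (edgeR adjusted p = 0.225 for ENST00000219313 and 0.205 for ENST00000568717), without SGC-CLK-1 replicate 3 (0.153 and 0.146), without DMSO replicate 1 (0.107 and 0.0815) and without DMSO replicate 3 (0.0928 and 0.107). They were also lost with the length-dependent scaling (0.0608 and 0.0520) and with no filter on low counts (0.134 and 0.0642), and the log2 fold changes stayed at or below -0.66.

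The tested transcripts of PSMD4 had values of both signs, as did those of other members such as PSMB4. ENST00000437736, which starts at the alternative first exon, fell: it had 13, 7 and 6 counts under the SGC-CLK-1 label and 13, 34 and 15 under DMSO, or 19.3, 18.8 and 15.9 CPM against 31.3, 66.4 and 41.3. Its log2 fold change was -1.31 ± 0.37 (SE, n = 3 per label, edgeR adjusted p = 0.0402). DMSO replicate 2 was far above the others, and without it the value was -0.92 with an adjusted p of 0.239. The call was also lost without SGC-CLK-1 replicate 1, 2 or 3 (edgeR adjusted p = 0.106, 0.141 and 0.142), without DMSO replicate 1 (0.0504), with the length-dependent scaling (0.0701) and with no filter on low counts (0.109). ENST00000437736 was not among the 2 proteasome transcripts called with DESeq2. A filter of at least 10 counts in every library also left 2 called, without it, since its counts of 7 and 6 fall below that. The full-length forms did not share its direction. ENST00000368884 had 102, 80.5 and 68.9 CPM under the SGC-CLK-1 label and 94.0, 54.7 and 63.3 under DMSO, with a log2 fold change of 0.34 ± 0.27 (SE, n = 3 per label, edgeR adjusted p = 0.552). ENST00000368881, with the 9 added bases, was at 0.28 ± 0.28 (SE, n = 3 per label, edgeR adjusted p = 0.651). Their groups overlapped, and reads that do not resolve the 9 bases can be counted on both. With a library left out, ENST00000368884 ran from 0.159 to 0.612 and ENST00000368881 from 0.06 to 0.574.

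**Figure D5:**
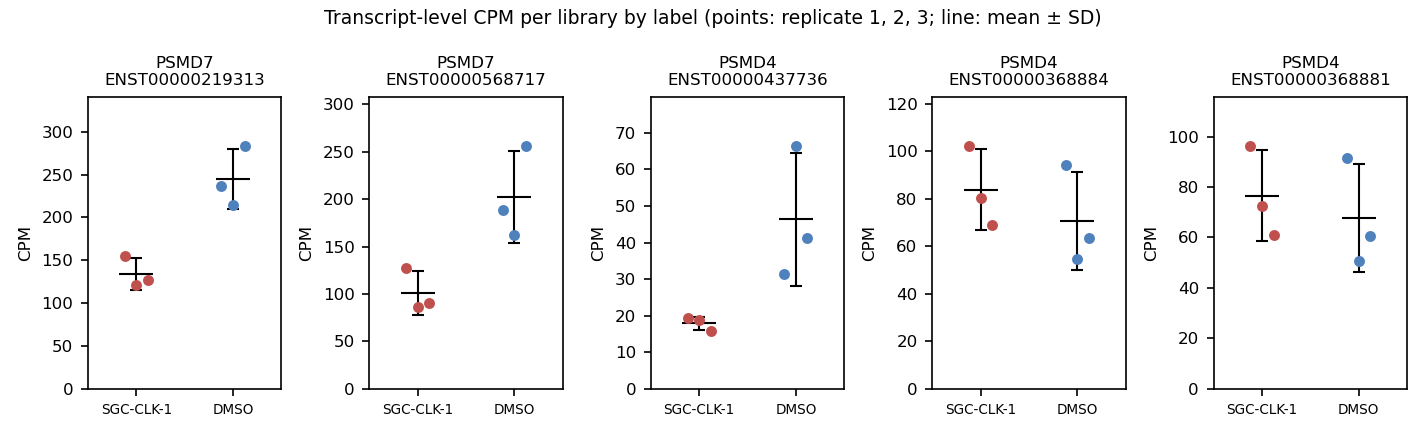
Transcript-level CPM in each library for 2 transcripts of PSMD7 and 3 of PSMD4, by label, with points for replicates 1, 2 and 3 and a line for the mean ± SD. Both PSMD7 transcripts and PSMD4 ENST00000437736 have groups that do not overlap (15.9 to 19.3 against 31.3 to 66.4 CPM for the last), and the full-length PSMD4 forms overlap.

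Whether the mixture of forms within a gene differed was tested with edgeR's diffSpliceDGE in 28 proteasome genes, of 1805 genes in all. Because secondary alignments were kept, 1 read can count on several forms, which can partly fix their shares. For example, PSMC2 ENST00000435765 had 113, 54 and 42 counts under the SGC-CLK-1 label, and ENST00000292644 had 112, 54 and 42. A lack of calls therefore cannot show that the mixture was unchanged. With the Simes test 0 of the 28 had an adjusted p under 0.05, against 0.277% of all genes, and 1 had an unadjusted p under 0.05, where 31 of the 1805 genes did. That gene was PSMD4 (unadjusted p = 0.00598, diffSpliceDGE), and the gene-level F-test also called 0, with an adjusted p of 0.399 for PSMD4. The class of transcript did not separate the labels either. Retained-intron transcripts took 10.0% ± 0.72 (SD, n = 3) of proteasome counts under the SGC-CLK-1 label and 9.82% ± 0.93 under DMSO, and decay-annotated ones took 6.35% ± 0.40 and 6.56% ± 0.34, with overlapping groups in both. Of the 11 tested retained-intron transcripts, 9 were negative and 2 of these, both from PSMB4, were lower at an unadjusted p.

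Among 35 other genes of the pathway, 27 were tested. With edgeR 0 passed the adjusted test, 2 were lower (7.41%) and 2 higher at an unadjusted p, near the shares of all tested genes given above (6.97% and 6.89%), and the median was -0.02. DESeq2 also called 0. The smallest p belonged to NGLY1, the deglycosylase that takes part in activating NFE2L1. It had 79.5, 104 and 166 CPM under the SGC-CLK-1 label and 40.7, 71.8 and 48.8 under DMSO, with no overlap and a log2 fold change of 1.08 ± 0.35 (SE, n = 3 per label, edgeR adjusted p = 0.166). NFE2L1 itself had 140, 136 and 109 CPM against 110, 64.1 and 51.7, which overlapped by 1 library of each label, and was at 0.77 ± 0.31 (SE, n = 3 per label, edgeR adjusted p = 0.278). The other genes that control proteasome expression were at 0.18 ± 0.31 for NFE2L2 and 0.15 ± 0.55 for DDI2, the protease that cleaves NFE2L1. PAAF1, which binds base ATPases during assembly, was lower at -0.69 ± 0.27 (SE, n = 3 per label, edgeR adjusted p = 0.257). Of the inducible core subunits, PSMB10 had 0 to 11 counts per library and was not tested, and the others were not analysed here.

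Promoter windows of RefSeq (GRCh38.p14, from 250 bases before to 50 after the start) were at hand for 35 of the 40 genes. On either strand, TGACNNNGC, the core of the element that NFE2L1 recognises, occurred in 11 of the 35 (31.4%) and in 13.6% of 27305 promoters. CCAAT occurred in 17 (48.6%, against 35.7%). The TGACNNNGC letters were in 1 of 10 core and 5 of 18 regulatory promoters with a window, among them PSMC4, PSMD1 and ADRM1, and in 5 of the 7 windows of chaperones and other activators, which thus held much of the excess over all promoters. The window of PSMD7 held CCAAT. These are matches of letters only.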

How the data were processed

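RNA of RM82 cells was reverse transcribed with trimer identifiers, sequenced on PromethION R9.4.1 flow cells and aligned by the authors to a human hg38 Ensembl transcriptome with minimap2 (version 2.22 in the submitters' processing notes), keeping secondary alignments, so 1 read can count on several isoforms or pseudogenes. The deposited values are counts of identifiers per transcript; whether homotrimer correction or UMI-tools made them is not given in the sources used here. Identifiers were matched to GENCODE release 44 without version (86362 of 93530, or 92.34%), and proteasome pseudogenes held 122 counts against 23617 on the genes. Gene sums and transcripts were fitted with edgeR 4.0.16 (filterByExpr minimum count 10 and total 15, TMM scaling, quasi-likelihood test, Benjamini-Hochberg adjustment at 0.05) on the 6 libraries, usage with diffSpliceDGE, in R 4.3.3, after testing on simulated data. CPM is the count over the library total times the TMM factor. DESeq2 1.42.0 and the other alternatives are given in the closing section. The 2 PSMD8 transcripts with identical counts were kept. Replicates differed by more than sampling noise (chi-square per degree of freedom 2.80 to 4.97). Named genes were the 3 members of smallest p in each direction, every called transcript and all tested PSMD4 transcripts, and the 3 pathway genes of smallest p; others are given by level, count and range. The members and lists were chosen with earlier results of these data known. The 4 columns of a PCR-cycle table that name no single sample and the other files of the series were not used here. Values of 1 further marker gene and 1 further sequence are not reported here.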

Additional observations from a re-analysis of the deposited data

How the results depend on the processing

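No proteasome gene passed the threshold in the main edgeR fit, but 1, PSMD7, did with DESeq2. PSMD7 also passed in the alternative edgeR fits with no filter and with the most abundant transcript only. The members lower at an unadjusted p under 0.05 numbered 8 (21.1%, against 6.97% of all genes). With library size only there were 4 (10.5% against 5.06%). With at least 10 counts in every library, a filter that removes genes low in any library, there were 5 (14.7% against 7.35%). With a library left out they numbered 1 to 12. The 1 was without DMSO replicate 3 (2.56% against 4.9%) and the 12 without DMSO replicate 2 (30.8% against 7.35%). The 3 called of 91 tested proteasome transcripts became 0 of 327 with no filter (23 at an unadjusted p, 21 of them lower). They became 0 of 91 with the length-adjusted scaling added after seeing the data (11 at an unadjusted p, 11 of them lower). With a library left out they numbered 0 to 8. In the main fit 15 of the 91 were under an unadjusted p of 0.05. Shares over all transcripts at an unadjusted p are not given here for the other fits. All genes called numbered 15, then 28 with library size only, 107 with DESeq2, 169 with no filter, 64 with at least 10 counts in every library, 0 with coding transcripts only (724 at an unadjusted p), 147 with the most abundant transcript, 44 with length adjustment, and 1 to 21 with a library left out. All transcripts called numbered 310, then 113 with DESeq2, 162 with no filter, 173 with at least 10 counts in every library and 81 to 363 with a library left out. The causes of these changes were not tested. The members' median log2 fold change ran from -0.463 to -0.288 with a library left out and stayed negative in all fits. The core minus regulatory difference ran from -0.255 to -0.047 with a library left out. Over all fits its lowest value was -0.261, with coding transcripts only. With a library left out, PSMC5 ran from -0.376 to 0.665 and PSMD13 from -0.026 to 0.283, both negative only without SGC-CLK-1 replicate 1. Library size only moved the median of all genes to 0.075. After each gene's mean within its label was subtracted, same-numbered libraries correlated at r = 0.064, 0.024 and 0.031 over 6344 genes. These are correlations of the remaining deviations, not of the levels themselves, and were too weak to pair the libraries. With the replicate block, 36 genes and 427 transcripts were called in all. Among the members, 0 genes and 4 transcripts were called, of which the added one was PSMA7 ENST00000484488. The depth of 362826 to 666702 counts limits the detection of members with few counts, such as PSMD3 and PSME1. Detection was limited for the other members too. In the simulated data, edgeR called 35.9% of the genes changed 2-fold and DESeq2 called 24.4%. The lowest fitted value of a tested member was -0.937 on the log2 scale, so a member that was not called is not shown to be unchanged.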

Other observations

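Within PSMB4 the retained-intron transcripts had opposite signs. ENST00000495288 had 25, 6 and 14 counts under the SGC-CLK-1 label and 25, 19 and 35 under DMSO, with a log2 fold change of -0.94 ± 0.35 (SE, n = 3 per label, edgeR adjusted p = 0.135). ENST00000476467 had 39, 12 and 21 counts against 14, 17 and 16, with a log2 fold change of 0.49 ± 0.32 (SE, n = 3 per label, edgeR adjusted p = 0.442). Neither passed the test, and they were named after their values were seen. PSMA7 ENST00000484488, which has no defined reading frame, had 81, 36 and 42 counts against 89, 66 and 86 and a log2 fold change of -0.74 ± 0.24 (SE, n = 3 per label, edgeR adjusted p = 0.0782).

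Over all matched transcripts, decay-annotated ones took 7.65% ± 0.013 of counts (SD, n = 3) under the SGC-CLK-1 label and 7.52% ± 0.049 under DMSO, with no overlap. Coding ones (75.7% against 76.3%) and those with no defined reading frame (4.74% against 4.50%) did not overlap either. The decay-annotated share within the proteasome genes overlapped, with a wider SD (0.40 and 0.34), and this contrast was not tested. The pseudogene PSMC1P1, a copy of the base ATPase gene PSMC1, had 37, 12 and 7 counts under the SGC-CLK-1 label and 9, 17 and 16 under DMSO. Whether reads from PSMC1 were counted on this copy was not tested.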
